A study of Mus musculus with 6 samples.

Results

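The 10 Notch pathway genes described here were the receptors *Notch1*, *Notch2*, *Notch3* and *Notch4*, the ligands *Dll1*, *Dll4*, *Jag1* and *Jag2*, and the target genes *Hes1* and *Heyl*. They were chosen by name as the listed receptors, ligands and targets of the pathway, and are 10 of 28707 genes with any estimated reads in RNA-seq libraries of embryonic mouse hearts. All 10 passed the filter on low counts, as did 16048 genes in all. Hearts were taken at E9.5 from C57BL/6 embryos, labelled whole heart, although the methods of the study speak of hearts or isolated ventricles. There were 3 libraries from FlncgKO embryos and 3 from littermate controls. FlncgKO is the study's global knockout, obtained through crosses of floxed *Flnc* mice with *Sox2* Cre mice. The deletion is therefore not in the heart alone. The genotype of the littermates beyond the word control, the sex of the embryos and the number of hearts in a library are not given in the sources used here, so p-values measure the spread between these libraries, which may be partly technical.

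Notch signalling passes between touching cells. A ligand of the Delta or Jagged family on 1 cell binds a receptor on its neighbour, the receptor is cut by ADAM metalloproteases and then by gamma-secretase, and the freed intracellular part enters the nucleus, where it joins RBPJ and a Mastermind protein to switch on genes of the HES and HEY families of repressors. In the embryonic heart the pathway is best known in the endocardium, the inner endothelial layer, where it takes part in the growth of trabeculae and in the formation of valve cushions, and in arterial endothelium and smooth muscle.

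The libraries held 19208859 to 23123255 estimated counts. *Flnc*, the deleted gene, was at 844.5, 623 and 746 CPM (a gene's share of the library's counts, scaled by TMM, a correction for RNA composition) in control replicates 1, 2 and 3 and at 127, 111 and 240 CPM in FlncgKO replicates 1, 2 and 3, so the labels matched the deleted gene and FlncgKO replicate 3 kept the highest level of the mutant libraries. All 12 cardiomyocyte markers were detected and summed to 37749 to 42919 CPM in controls and 34818 to 40312 CPM in FlncgKO hearts. This sum covers moves in both directions. *Myh6* was at 8509 to 9165 CPM in controls and 5510 to 7708 CPM in FlncgKO hearts. *Myh7* was at 5669 to 7514 CPM in controls and 7846 to 8865 CPM in FlncgKO hearts. The 4 Y-linked genes summed to 117 to 140 CPM in the controls and to 80.7, 3.88 and 4.28 CPM in FlncgKO replicates 1, 2 and 3, so Y-linked RNA was not balanced between the groups. The 10 platelet markers summed to 20.9 to 30.3 CPM in the controls and to 706, 439 and 112 CPM in FlncgKO replicates 1, 2 and 3.

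The start-site regions of *Notch4*, *Dll1* and *Jag1*, the 3 members called by the tool DESeq2, are shown so that the searched letters can be read in place, together with that of *Hey2*, another HEY-family target, as an example that holds the RBPJ core. Each runs 5′ to 3′ on the gene's own strand from 250 bases before to 50 after the RefSeq start in GRCm38.p6. Capitals mark matches on either strand to the RBPJ core TGGGAA, to the E-box CACGTG or to the N-box CACNAG, the last 2 being letters that HES and HEY proteins can bind. The *Notch4* region is chr17:34564045-34564344 on the plus strand, the *Dll1* region chr17:15376883-15377182, the *Jag1* region chr2:137116471-137116770 and the *Hey2* region chr10:30842734-30843033, these 3 on the minus strand.
Notch4: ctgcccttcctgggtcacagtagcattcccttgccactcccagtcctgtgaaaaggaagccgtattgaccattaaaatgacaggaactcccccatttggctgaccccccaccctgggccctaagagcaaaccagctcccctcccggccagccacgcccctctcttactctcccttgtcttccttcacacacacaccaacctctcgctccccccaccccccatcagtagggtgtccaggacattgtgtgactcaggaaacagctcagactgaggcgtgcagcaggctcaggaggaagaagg
Dll1: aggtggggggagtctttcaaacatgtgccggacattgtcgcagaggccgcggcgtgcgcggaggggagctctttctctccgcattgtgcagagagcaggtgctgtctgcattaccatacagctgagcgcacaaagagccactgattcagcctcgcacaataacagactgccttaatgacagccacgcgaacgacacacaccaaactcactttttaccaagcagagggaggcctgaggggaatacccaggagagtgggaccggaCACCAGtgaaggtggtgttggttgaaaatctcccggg
Jag1: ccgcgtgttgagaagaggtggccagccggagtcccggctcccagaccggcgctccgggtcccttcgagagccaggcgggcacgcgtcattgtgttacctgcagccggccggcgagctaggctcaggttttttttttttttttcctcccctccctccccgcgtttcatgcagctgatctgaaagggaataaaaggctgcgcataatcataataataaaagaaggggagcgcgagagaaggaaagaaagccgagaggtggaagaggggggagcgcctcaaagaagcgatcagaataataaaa
Hey2: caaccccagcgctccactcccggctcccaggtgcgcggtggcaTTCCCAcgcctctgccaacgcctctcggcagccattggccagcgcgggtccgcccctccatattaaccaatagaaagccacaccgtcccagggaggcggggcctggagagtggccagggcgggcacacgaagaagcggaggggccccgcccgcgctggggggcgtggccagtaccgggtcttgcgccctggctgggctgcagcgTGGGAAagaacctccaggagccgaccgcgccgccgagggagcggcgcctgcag

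RefSeq regions were matched for 8 of the 10 members, all but *Hes1* and *Heyl*. None of the members' regions, including a further *Dll1* region at chr17:15375774-15376073, held the RBPJ core, which 25.4% of 32544 mouse regions of the same length held, and none held the E-box, which 7.17% held. The N-box was found in the regions of *Notch1*, *Notch2*, *Notch3*, *Dll1* and *Dll4*, against 42.6% of all regions. Counted from the start site, the N-box of *Dll1* began at 14 and the RBPJ cores of *Hey2* at -207 and -3. A match is a description of letters in this window only.

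**Figure D1:**
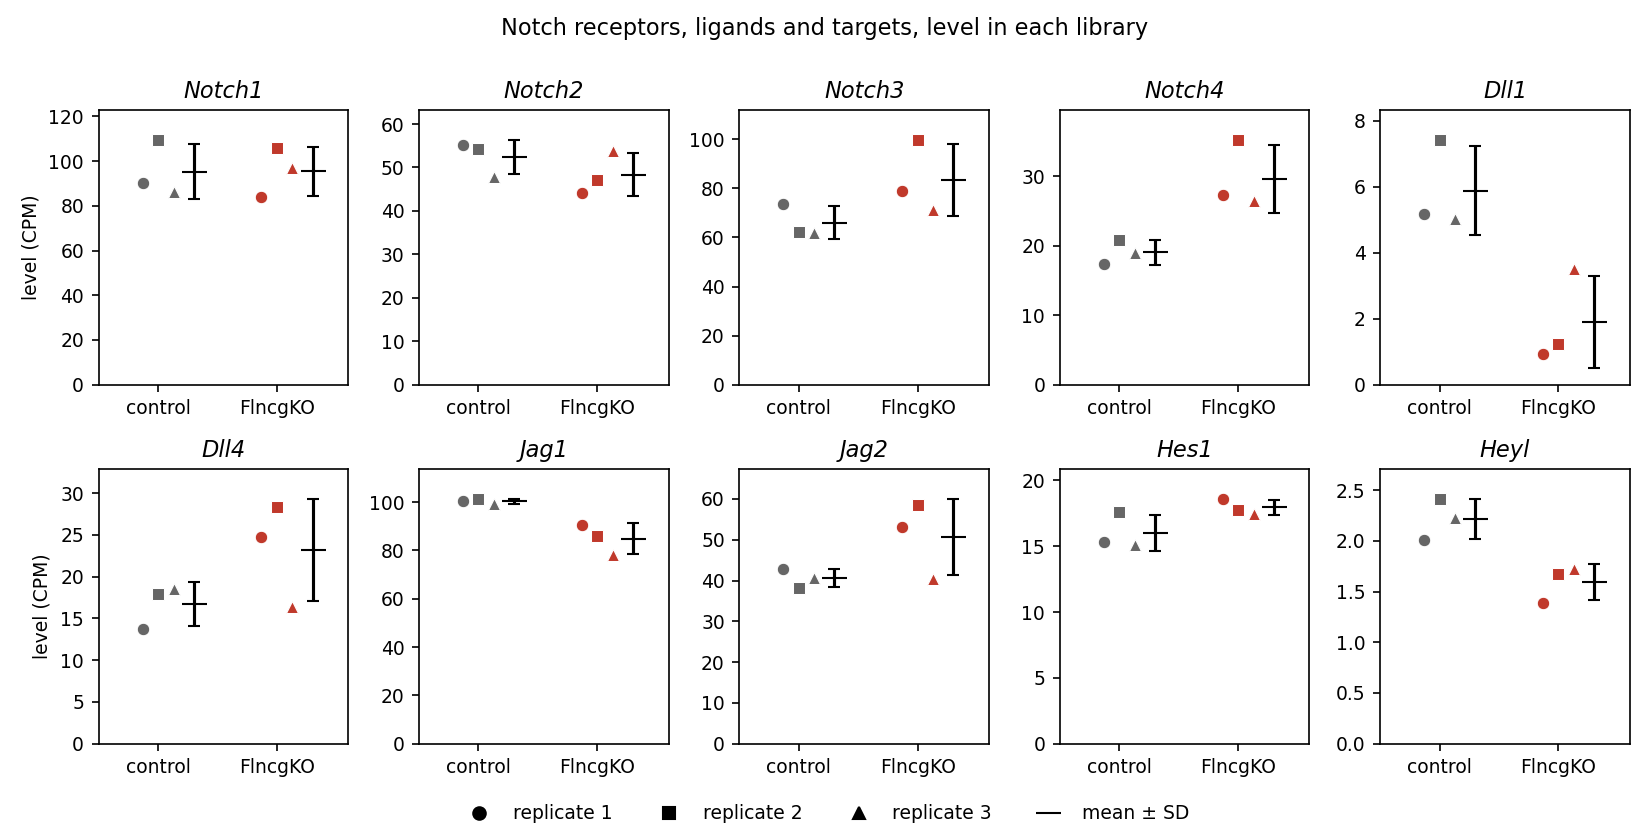
Level of each of the 10 Notch genes in CPM (linear axes from 0, 1 panel per gene) in 3 control and 3 FlncgKO libraries, with the mean ± SD of each group at the right of its points. *Notch4* was higher in all 3 FlncgKO libraries than in any control and *Dll1*, *Jag1* and *Heyl* were lower, while the points of the other 6 genes overlapped.

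The comparison of FlncgKO with control hearts asks whether the RNA of these genes differed in hearts without filamin C. The main test was the quasi-likelihood test of edgeR, with p adjusted by Benjamini-Hochberg over the whole table. None of the 10 members passed an adjusted p of 0.05 in either direction, where 1.06% of all genes passed as higher and 0.249% as lower. The deleted gene *Flnc* did not pass this test either, at a log2 fold change of -2.21 (adjusted p = 0.0656 in edgeR and 9.94e-07 in DESeq2). Of the 10 platelet markers edgeR called 0 and DESeq2 called 10 higher. Missing the edgeR threshold therefore does not show that a gene was unchanged. With unadjusted p under 0.05, *Notch3*, *Notch4* and *Jag2* were higher and *Dll1* and *Jag1* lower in FlncgKO hearts, against 13.3% and 8.84% of all genes. DESeq2, the tool of the study and used here as an alternative, called *Notch4* higher and *Dll1* and *Jag1* lower. It called 6.22% of all genes higher and 2.27% lower. With a covariate from the 4 Y-linked genes, the DESeq2 adjusted p was 0.952 for *Notch4*, 0.0306 for *Dll1* and 1.00 for *Jag1*, so that only the call of *Dll1* remained among these 3. The DESeq2 log2 fold changes with that covariate were 0.49, -2.80 and -0.13, against 0.63, -1.66 and -0.25 without it. The Y-linked sums of FlncgKO replicates 2 and 3 were far below those of all controls, so the covariate largely follows the groups. The fit with it rests mainly on FlncgKO replicate 1, the mutant library with the least *Dll1* RNA. It therefore cannot tell sex and genotype well apart, whether a call was kept or lost. Library ranges of the 2 groups did not overlap for 4 of the 10 members (1 higher, 3 lower), against 29.7% of all genes. The median log2 fold change of the members was 0.08, against 0.01 over all genes, with 6 above 0 and 4 below.

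Among the receptors, *Notch4*, which is made largely by endothelial cells, showed the largest difference. It was at 17.3, 20.9 and 18.9 CPM in the controls and at 27.3, 35.3 and 26.4 CPM in FlncgKO replicates 1, 2 and 3, so that every FlncgKO library lay above every control. The means were 19.1 ± 1.78 and 29.7 ± 4.89 CPM (SD, n = 3 each), a 1.56-fold higher level in FlncgKO hearts. The log2 fold change was 0.64 ± 0.13 (SE, 95% interval 0.34 to 0.94), with an adjusted p of 0.0622 in edgeR and 0.00144 in DESeq2, which was 0.0501 without control replicate 1. In bulk RNA such a difference cannot be told apart as more RNA per cell or more cells of the type that makes it. *Notch4* runs from 34564268 to 34588503 on the plus strand of chromosome 17 (GRCm38), and its 30-exon coding transcript had a mean TPM, a level corrected for transcript length, of 4.38 ± 0.54 in controls and 6.66 ± 1.33 in FlncgKO hearts.

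*Notch3*, the receptor of smooth muscle and pericytes, was at 73.7, 62.2 and 61.9 CPM in the controls and at 79.0, 99.9 and 71.3 CPM in FlncgKO hearts. The groups overlapped, since FlncgKO replicate 3 lay below control replicate 1. Its log2 fold change was 0.34 ± 0.14 with an adjusted p of 0.208 in edgeR and 0.124 in DESeq2, which was 0.0145 at a log2 fold change of 0.43 without FlncgKO replicate 3. Without FlncgKO replicate 2 the log2 fold change was 0.18, with an adjusted p of 0.601 in DESeq2. The 8 pericyte and smooth muscle markers, of which 7 were tested, had a median log2 fold change of 0.05, and *Pdgfrb*, the PDGF receptor of these cells, spanned 14.5 to 17.3 CPM in controls and 10.8 to 22.9 CPM in FlncgKO hearts. *Tagln*, a smooth muscle actin-binding protein that is also made in the early myocardium, was at 541 to 571 CPM in controls and 632 to 711 CPM in FlncgKO hearts, with a log2 fold change of 0.28 (adjusted p = 0.0605 in edgeR and 0.000684 in DESeq2). Whether mural cells had a part in the *Notch3* values was not tested.

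*Notch1*, the receptor that acts in endocardium and arteries, was at 90.2, 109.6 and 86.3 CPM in the controls and at 83.7, 105.7 and 96.7 CPM in FlncgKO hearts. Its means of 95.3 ± 12.5 and 95.4 ± 11 CPM differed by far less than the spread between libraries, and its log2 fold change was 0.00 with a 95% interval from -0.27 to 0.28. *Notch2*, which acts with *Jag1* in the outflow tract and its smooth muscle, was at 55.2, 54.2 and 47.9 CPM in the controls and at 44.0, 47.1 and 53.7 CPM in FlncgKO hearts. The groups overlapped, with FlncgKO replicate 3 among the controls, and the log2 fold change was -0.12 with a 95% interval from -0.33 to 0.09 (adjusted p = 0.478 in edgeR). The sign of the *Notch1* value depended on the scaling, and its interval leaves room for changes of up to 0.28 on the log2 scale either way.

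Among the ligands, *Dll1* had the largest difference and the largest error of the list. This Delta ligand is best known in somites and the neural tube and is also made in arterial endothelium. It was at 5.17, 7.43 and 5.02 CPM in the controls and at 0.94, 1.24 and 3.49 CPM in FlncgKO replicates 1, 2 and 3, from 113, 154 and 104 against 21, 28 and 67 estimated counts. All FlncgKO libraries lay below all controls, and FlncgKO replicate 3 stood nearer to the controls than to the other FlncgKO libraries. The means were 5.87 ± 1.35 and 1.89 ± 1.40 CPM, a 3.13-fold lower level in FlncgKO hearts. The log2 fold change was -1.64 ± 0.51 (95% interval -2.87 to -0.42), with an adjusted p of 0.134 in edgeR and 0.00852 in DESeq2. Without FlncgKO replicate 3 it was -2.43 with an adjusted p of 0.00264 in edgeR. In DESeq2 the adjusted p was 0.0878, 0.196, 0.0729 and 0.147 without control replicate 1, control replicate 2, FlncgKO replicate 1 and FlncgKO replicate 2, with log2 fold changes of -1.74, -1.45, -1.34 and -1.43 against -1.66 with all libraries.

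Markers of the tissues in which *Dll1* is best known were set beside it. Of 11 presomitic and somite markers, 3 passed the count filter and *Msgn1* and *Myf5*, which define presomitic mesoderm and myogenic somite cells, had no count in any library. The list summed to 2.75 to 3.24 CPM in controls and 4.54 to 5.06 CPM in FlncgKO hearts. It includes *Hes7*, *Lfng* and *Dll3*, which are also genes of the Notch pathway. Mean levels in controls and FlncgKO hearts were 0.77 and 1.58 CPM for *Hes7* and 0.65 and 1.20 CPM for *Lfng*. They were 0.86 and 0.87 CPM for *Meox1* and 0.37 and 0.41 CPM for *Tbx6*. Of 12 neural markers, 6 were tested and *Neurog2* and *Olig2* had no count in any library. The sum of the neural list was carried by *Nes*, an intermediate filament of progenitor cells that is also found outside the nervous system, at 264 to 292 CPM in controls and 293 to 369 CPM in FlncgKO hearts, without overlap (log2 fold change 0.29, adjusted p = 0.117 in edgeR and 0.0395 in DESeq2). The median log2 fold change of the 6 tested neural genes was -0.48. *Tubb3*, a neuronal tubulin, was at 8.69, 11.3 and 7.58 CPM in controls and at 4.96, 2.65 and 6.62 CPM in FlncgKO hearts, again with FlncgKO replicate 3 nearest the controls (adjusted p = 0.164 in edgeR and 0.0438 in DESeq2). *Elavl3*, a neuronal RNA-binding protein, spanned 0.48 to 1.01 CPM in controls and 0.45 to 0.68 CPM in FlncgKO hearts. The part of neural tissue in the *Dll1* values was not tested.

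Of 10 markers of the second heart field and of the splanchnic mesoderm behind the heart, 9 were tested, with 7 log2 fold changes below 0 and a median of -0.56, and the list summed to 97.4 to 121 CPM in controls and 66.4 to 88.3 CPM in FlncgKO hearts. *Osr1*, a transcription factor of splanchnic mesoderm, fell with a log2 fold change of -1.48 (adjusted p = 0.0423 in edgeR), and *Isl1*, the defining factor of the second heart field, had a value of -0.69 (adjusted p = 0.0763 in edgeR and 0.0171 in DESeq2). The part of this tissue in the *Dll1* and *Jag1* values was not tested.

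*Jag1*, the Jagged ligand of endocardium, outflow tract and smooth muscle, was at 100.4, 101.2 and 99.0 CPM in the controls and at 90.7, 85.9 and 77.9 CPM in FlncgKO replicates 1, 2 and 3. The controls had a mean of 100.2 CPM with an SD of 1.116, and all FlncgKO libraries were below them, with a mean of 84.8 ± 6.46 CPM. The log2 fold change was small at -0.24 ± 0.07 (95% interval -0.39 to -0.09), with an adjusted p of 0.0994 in edgeR and 0.0344 in DESeq2. It was the only member of the 10 for which FlncgKO replicate 3 was the mutant library farthest from the controls. In DESeq2 the adjusted p was 0.00865 without FlncgKO replicate 1 and between 0.0576 and 0.197 without any other library, where the log2 fold change was -0.19 to -0.26, against -0.25 with all libraries.

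*Dll4*, the ligand of arterial endothelium and early endocardium, was at 13.7, 17.9 and 18.6 CPM in the controls and at 24.8, 28.4 and 16.4 CPM in FlncgKO hearts. *Jag2*, a second Jagged ligand, was at 42.8, 38.3 and 40.7 CPM in the controls and at 53.2, 58.5 and 40.3 CPM in FlncgKO hearts. For both ligands FlncgKO replicates 1 and 2 were above all controls and FlncgKO replicate 3 was among them. The log2 fold changes were 0.47 ± 0.22 for *Dll4* and 0.32 ± 0.13 for *Jag2*, with adjusted p of 0.27 and 0.225 in edgeR and 0.199 and 0.195 in DESeq2. Without FlncgKO replicate 3 they were 0.67 and 0.46, with adjusted p of 0.0311 and 0.0136 in edgeR. Without FlncgKO replicate 2 they were 0.30 and 0.20, with adjusted p of 0.560 and 0.492 in edgeR. Leaving out any library but FlncgKO replicate 3 gave no adjusted p under 0.05 in edgeR for either ligand.

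The 2 targets did not pass the test in either tool. *Hes1*, a repressor that Notch switches on in many tissues, was at 15.3, 17.6 and 15.1 CPM in the controls and at 18.6, 17.8 and 17.5 CPM in FlncgKO hearts, where 2 of 3 FlncgKO libraries lay above all controls. Its log2 fold change was 0.17 ± 0.09 (adjusted p = 0.317 in edgeR and 0.591 in DESeq2). *Heyl*, a HEY-family repressor of vascular smooth muscle, had the lowest mean of the members in each group. It was at 2.01, 2.41 and 2.22 CPM in the controls and 1.39, 1.68 and 1.72 CPM in FlncgKO hearts. The groups did not overlap, but the counts behind these levels were only 44, 50 and 46 against 31, 38 and 33, and the log2 fold change of -0.47 ± 0.21 had a 95% interval from -0.95 to 0.00 (adjusted p = 0.228 in edgeR and 0.512 in DESeq2).

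**Figure D2:**
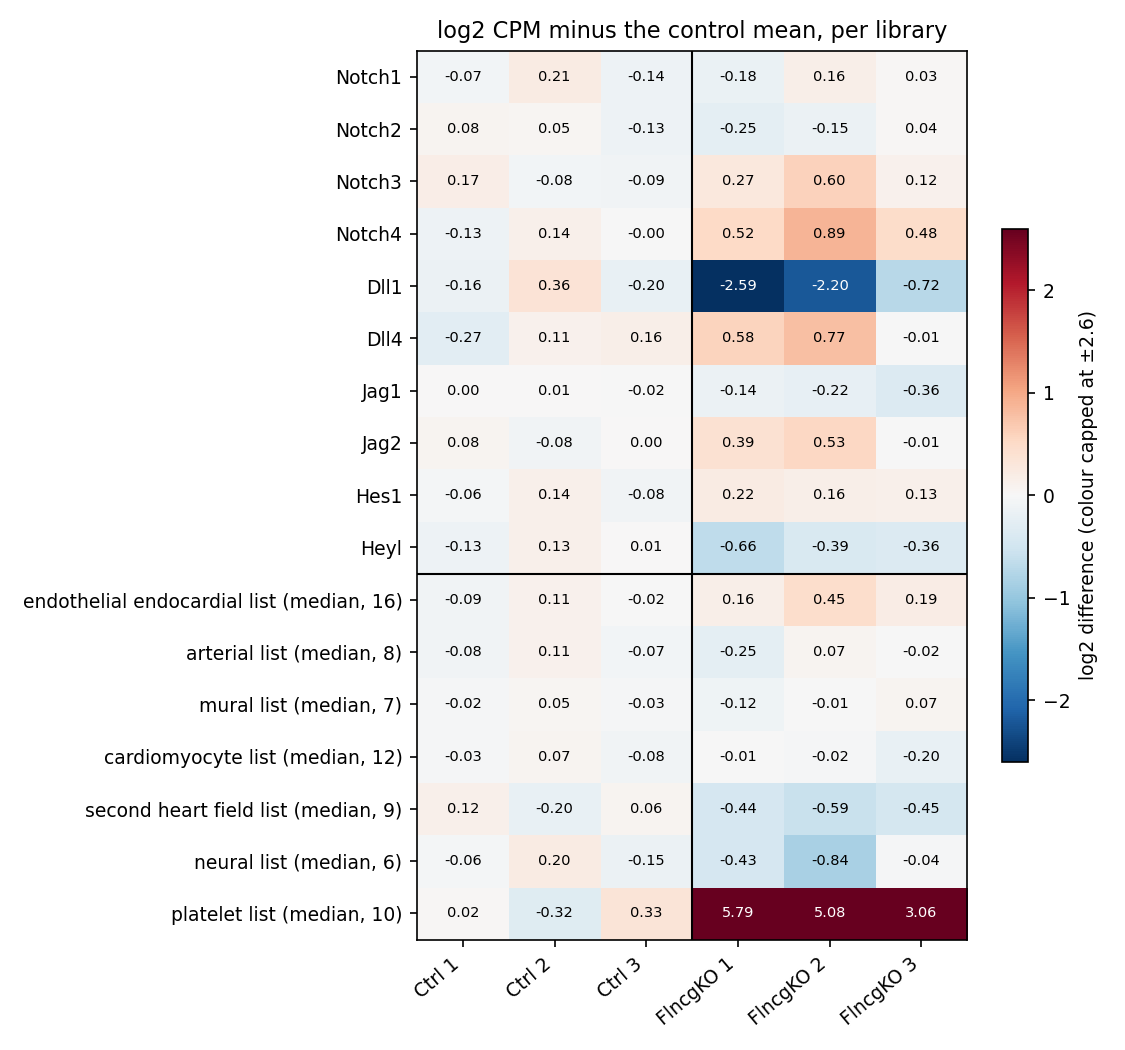
Difference of each library's log2 CPM from the control mean for the 10 Notch genes, with the median of the same difference over marker lists below (number of tested genes in brackets, colour capped at 2.6). *Dll1* was at -2.59, -2.20 and -0.72 in FlncgKO replicates 1, 2 and 3, and *Notch4* at 0.52, 0.89 and 0.48.

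FlncgKO replicate 3 was the mutant library nearest to the control mean for 9 of the 10 members, all but *Jag1*. Over all genes tested it was nearest for 39.3%, FlncgKO replicate 1 for 38.6% and FlncgKO replicate 2 for 22.1%. This library also kept the most *Flnc* RNA and had the lowest platelet marker sum of the FlncgKO libraries, as given above. Whether these properties had a part in the Notch values was not tested.

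Several members are genes of endothelium, so the endothelial and endocardial markers were set beside them. All 16 were tested, with a median log2 fold change of 0.26 and 12 above 0, and they summed to 1127 to 1321 CPM in controls and 1300 to 1580 CPM in FlncgKO hearts. *Sox17*, an endothelial transcription factor, and *Emcn*, the sialoglycoprotein endomucin, rose by 1.96 and 1.24 on the log2 scale (adjusted p = 0.0128 and 0.0353 in edgeR), and *Esam*, an adhesion molecule, had a value of 0.53 (adjusted p = 0.0626 in edgeR and 0.00257 in DESeq2). DESeq2 called 7 of the list higher and 2 lower, and the lower genes were *Npr3*, a natriuretic peptide receptor of endocardium, at -0.58, and *Tek*, the angiopoietin receptor TIE2, at -0.40 (adjusted p = 0.101 and 0.109 in edgeR and 0.00078 and 0.0122 in DESeq2). The 8 arterial markers had a median of -0.06. The mean log2 CPM of the endothelial list was 5.49 ± 0.08 in controls and 5.85 ± 0.15 in FlncgKO hearts, a difference of 0.36.

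Taken relative to that endothelial mean, *Notch4* stood at -1.28, -1.16 and -1.27 on the log2 scale in controls and at -0.97, -0.88 and -1.06 in FlncgKO hearts, so that a difference of 0.27 remained and the groups did not overlap. *Dll4*, *Notch3*, *Jag2* and *Hes1* had relative differences of 0.08, -0.03, -0.06 and -0.19, with groups that overlapped. *Notch1* and *Notch2* were lower relative to the endothelial list, by differences of -0.36 and -0.48, as were *Jag1* at -0.61, *Heyl* at -0.83 and *Dll1* at -2.20, each with groups that did not overlap. The smallest p that an exact two-sided permutation test of 3 against 3 libraries allows is 0.1, and each of the 6 members whose groups did not overlap reached it. On this scale, where the endothelial list mean lowers each relative value by the same 0.36, 55.3% of all genes were lower and 3.46% higher in FlncgKO hearts without overlap, so the 5 lower members are read against a share of that size.

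**Figure D3:**
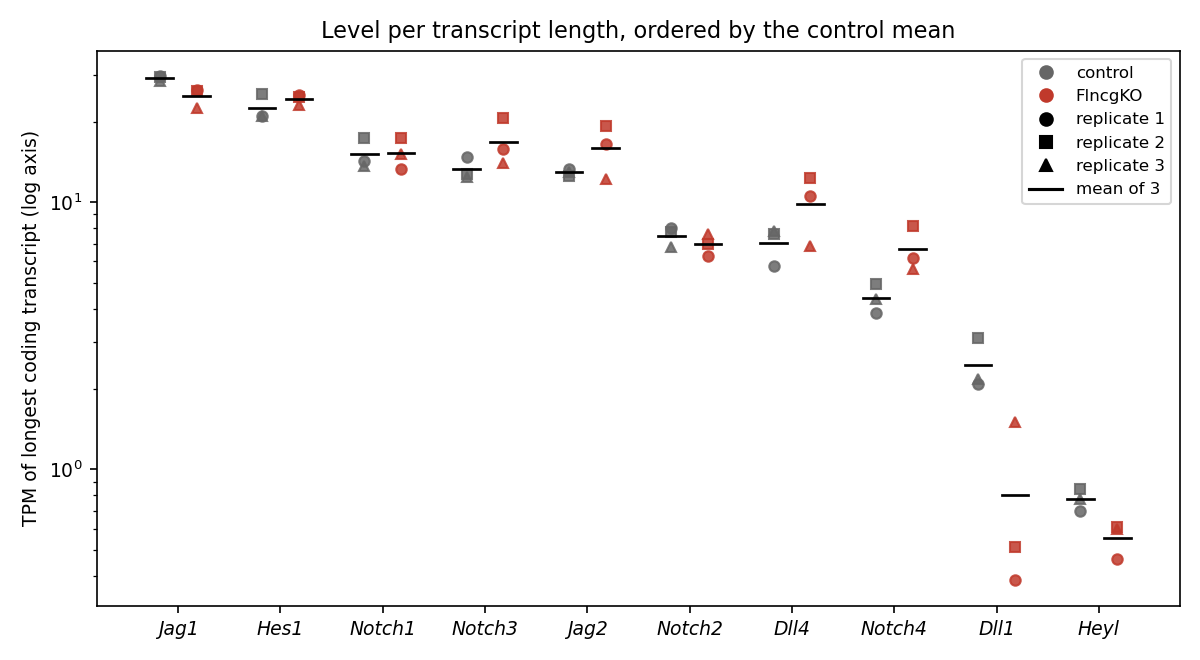
TPM of the longest coding transcript of each Notch gene on a log axis, ordered by the control mean, with the 3 control and 3 FlncgKO libraries as points and the mean as a line. *Jag1* and *Hes1* were highest, *Dll1* and *Heyl* lowest, and the *Dll1* points of FlncgKO hearts lay between 0.38 and 1.5 TPM.

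Levels between genes were compared as TPM summed over all transcripts of a gene. In controls the order was *Jag1* at 32.9 ± 0.65, *Hes1* at 30.5 ± 1.22, *Jag2* at 21.5 ± 2.24, *Notch1* at 18.6 ± 3.92, *Notch3* at 14.6 ± 1.90, *Notch2* at 7.5 ± 0.64, *Dll4* at 7.29 ± 0.69, *Notch4* at 6.21 ± 0.99, *Dll1* at 3.61 ± 1.11 and *Heyl* at 0.93 ± 0.22 TPM. Library ranges overlapped between the neighbours *Jag2* and *Notch1*, *Notch1* and *Notch3*, *Notch2* and *Dll4*, and *Dll4* and *Notch4*, and were separate between the other neighbours. In FlncgKO hearts *Hes1* at 34.5 ± 2.02 TPM stood above *Jag1* at 28.1 ± 2.31 TPM with separate ranges, *Dll4* at 10.01 ± 2.96 and *Notch4* at 9.65 ± 2.48 TPM had higher means than *Notch2* at 7.05 ± 0.63 TPM, with ranges that overlapped for *Dll4* and were separate for *Notch4*, and *Dll1* at 1.07 ± 0.56 TPM overlapped *Heyl* at 0.78 ± 0.31 TPM.

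Summed TPM includes short noncoding transcripts, and for some genes these made up much of the sum. The longest coding transcript held 100% of *Notch2* TPM in controls and 96.7% of *Dll4*, but 60.2% of *Jag2*, 68.0% of *Dll1*, 70.6% of *Notch4* and 73.6% of *Hes1*. In coding TPM alone *Jag2* moved in controls from the place above *Notch1* to the place below *Notch3*, at 12.96 ± 0.41 against 15.2 ± 2.02 and 13.3 ± 1.25 TPM, while *Jag1* and *Hes1* stayed highest at 29.2 ± 0.61 and 22.4 ± 2.53 TPM. In FlncgKO hearts *Hes1* and *Jag1* were at 24.4 ± 1.13 and 25.0 ± 2.14 coding TPM with overlapping ranges, so the separation of these genes in summed TPM was not present in coding TPM. The same held for *Notch4* and *Notch2*, at 6.66 ± 1.33 and 6.96 ± 0.66 coding TPM in FlncgKO hearts. Their ranges overlapped and *Notch2* had the higher mean. For *Dll1* the 11-exon coding transcript was at 2.09, 3.10 and 2.17 TPM in controls and 0.38, 0.51 and 1.5 TPM in FlncgKO hearts, and for *Jag1* the 26-exon transcript was at 29.7, 29.5 and 28.5 against 26.3, 26.1 and 22.5 TPM.

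**Figure D4:**
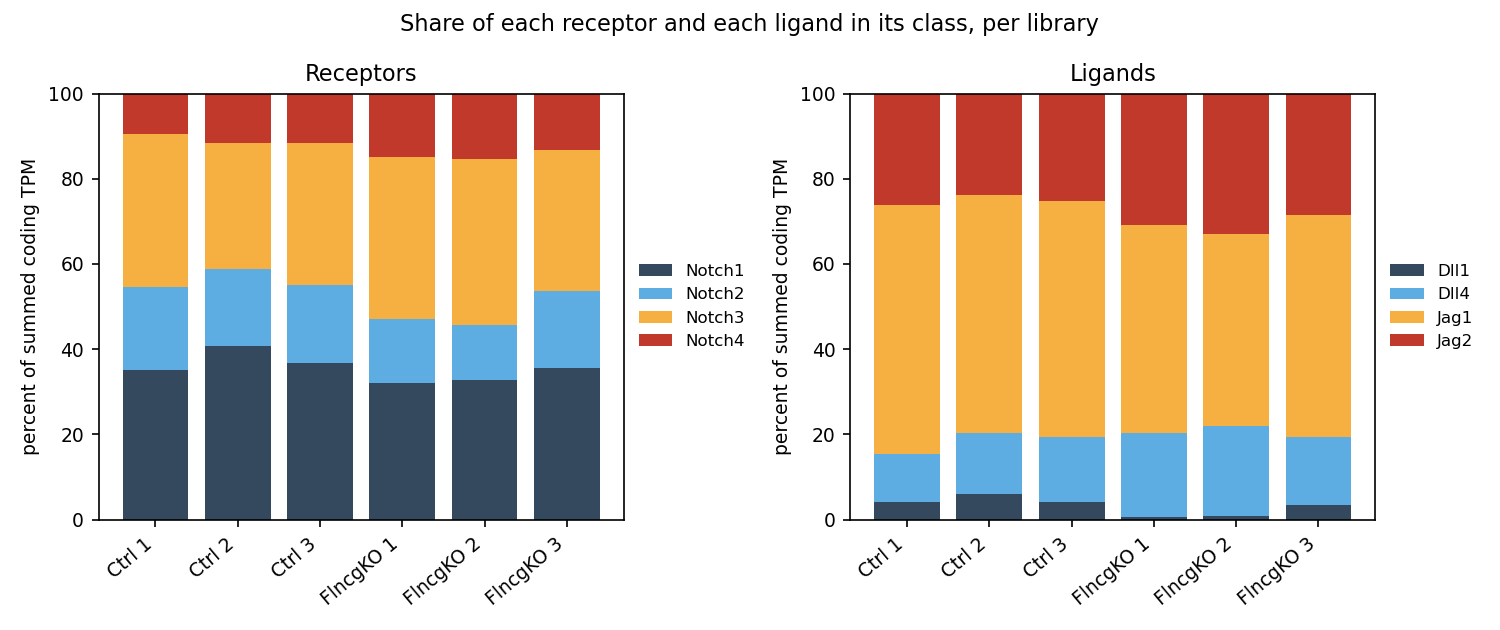
Share of each receptor and each ligand in the summed coding TPM of its class, in percent, as stacked bars for the 3 control and 3 FlncgKO libraries. *Notch4* took 9.42 to 11.7% of receptor TPM in controls and 13.3 to 15.4% in FlncgKO hearts.

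The makeup of each class was described as the share of its coding TPM. The receptors summed to 40.9, 42.9 and 37.2 TPM in controls and to 41.6, 53.2 and 42.4 TPM in FlncgKO hearts, and the ligands to 50.9, 52.6 and 51.5 against 53.8, 58.2 and 43.1 TPM, so neither sum separated the groups fully. *Notch4* went from 10.9% ± 1.26 to 14.5% ± 1.09 of receptor TPM and *Notch2* from 18.6% ± 0.85 to 15.4% ± 2.47, each without overlap. For *Notch2* the groups barely separated, with control replicate 2 at 18.00% and FlncgKO replicate 3 at 17.99%. *Notch1* was at 37.5% ± 2.93 and 33.5% ± 1.94 and *Notch3* at 33.0% ± 3.14 and 36.6% ± 3.13, both with exact permutation p of 0.2 or more. Among the ligands *Dll1* took 4.74% ± 1.00 in controls and 1.69% ± 1.56 in FlncgKO hearts, *Jag1* 56.5% ± 1.56 and 48.7% ± 3.68, *Dll4* 13.6% ± 2.00 and 18.9% ± 2.74, and *Jag2* 25.1% ± 1.22 and 30.8% ± 2.31. No ligand share overlapped between the groups (exact two-sided permutation p = 0.1 each, the smallest possible), and since shares add to a whole, a lower share of 1 ligand raises those of the others.

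The other genes of the pathway, 69 from lists by role, had 62 tested. In edgeR none passed the threshold in either direction. With unadjusted p under 0.05 there were 9 genes above and 6 below the controls, and in DESeq2 *Maml3* and *Dtx3* were called higher and *Hdac1* lower. Their median log2 fold change was 0.00, with 31 above and 31 below 0, and groups did not overlap for 32.3%, near the 29.7% of all genes.

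Of these, *Maml3*, a Mastermind co-activator that joins the receptor fragment on RBPJ, was at 18.6, 16.2 and 19.1 CPM in controls and at 24.2, 24.9 and 29.1 CPM in FlncgKO hearts, each FlncgKO library above each control. Its log2 fold change was 0.54 ± 0.10, with an adjusted p of 0.0563 in edgeR and 0.00277 in DESeq2. *Maml1* and *Rbpj*, the DNA-binding partner, had values of 0.25 ± 0.07 and 0.22 ± 0.07 with groups that did not overlap (adjusted p = 0.104 and 0.134 in edgeR). *Kat2a*, an acetyltransferase of the complex, had a value of -0.24 without overlap, so that of the 8 nuclear genes 3 had an unadjusted p under 0.05 above the controls and 1 below, against 13.3% and 8.84% of all genes.

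Among the 11 co-repressors, which hold target genes silent together with RBPJ, 3 were below the controls with an unadjusted p under 0.05 and none above, against 8.84% and 13.3% of all genes. *Hdac1*, a histone deacetylase, was at 156, 147 and 149 CPM in controls and 136, 128 and 133 CPM in FlncgKO hearts, with a log2 fold change of -0.18 ± 0.05 (adjusted p = 0.0988 in edgeR and 0.0322 in DESeq2). *Tle2* and *Tle4*, Groucho-type co-repressors, had values of -0.35 ± 0.09 and -0.25 ± 0.08 (adjusted p = 0.0827 and 0.143 in edgeR). *Tle3*, of the same type, went the other way at 0.15 ± 0.08 without overlap (adjusted p = 0.347 in edgeR). *Tle1* had a value of -0.05 ± 0.07 with groups that overlapped (adjusted p = 0.715 in edgeR). Of the 11 inhibitors and turnover genes, 10 were tested, and *Dtx3*, of the Deltex family, had a value of 0.27 ± 0.06 (adjusted p = 0.0806 in edgeR and 0.0325 in DESeq2). *Numbl* and *Numb*, which act on receptor trafficking, had values of 0.38 ± 0.12 and 0.15 ± 0.05 without overlap (adjusted p = 0.127 and 0.175 in edgeR).

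**Figure D5:**
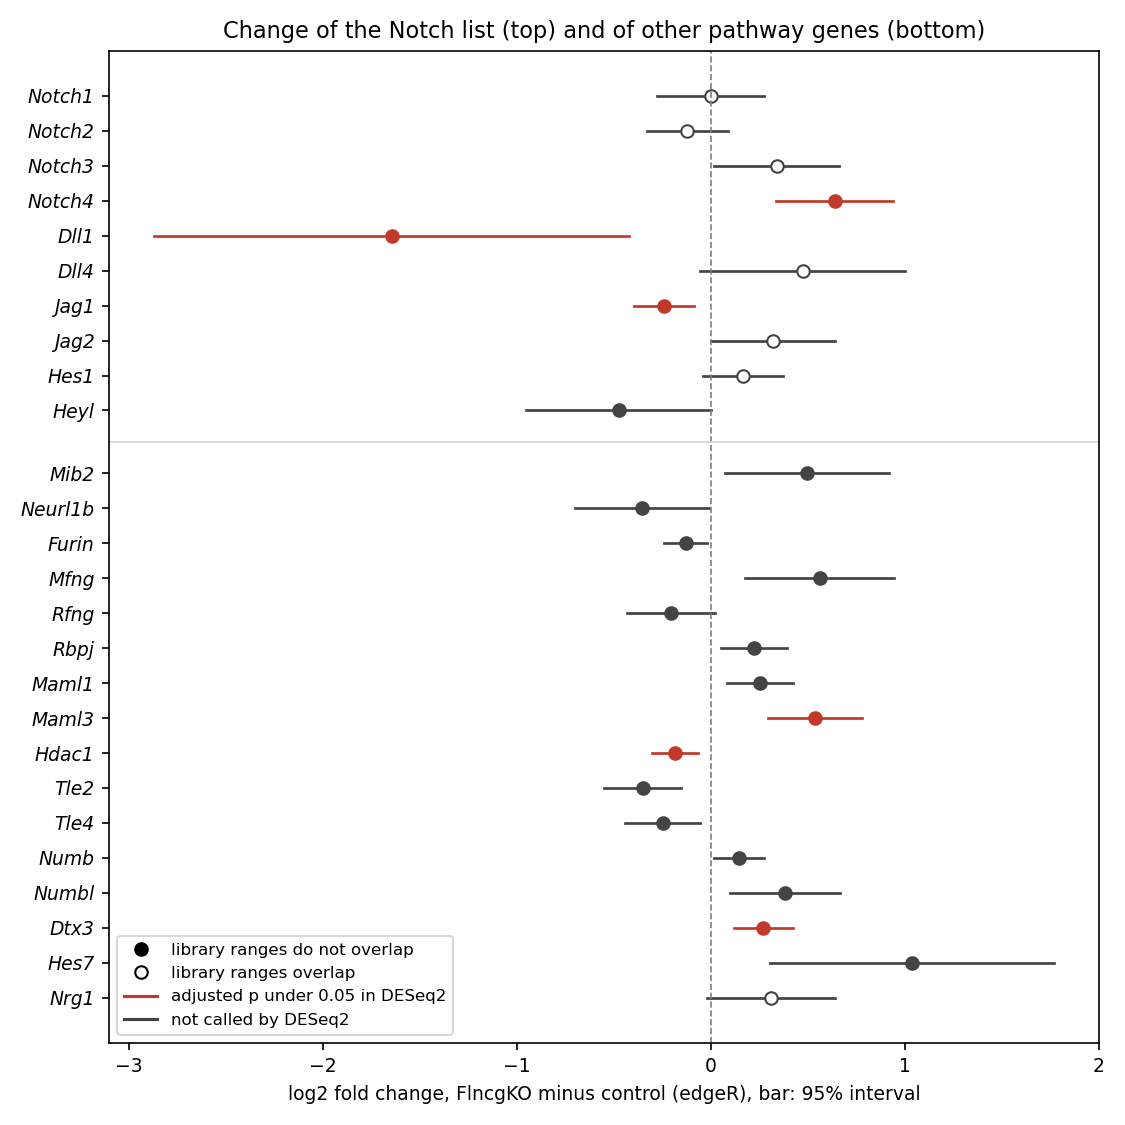
Log2 fold change of FlncgKO over control with its 95% interval from edgeR for the 10 Notch genes (top) and for other pathway genes (bottom). Filled points mark genes whose library ranges did not overlap, red marks an adjusted p under 0.05 in DESeq2, and no gene shown passed that threshold in edgeR.

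Of the 8 genes of ligand handling, 6 were tested. *Mib2*, a ubiquitin ligase that acts on ligands, was at 18.1 to 18.7 CPM in controls and 21.4, 34.0 and 22.4 CPM in FlncgKO hearts (log2 fold change 0.50 ± 0.18, adjusted p = 0.169 in edgeR), and *Neurl1b*, another ligase, had a value of -0.36 ± 0.15 (adjusted p = 0.214). *Mib1*, given for its role as the main ligase for Notch ligands in the mouse embryo, was at 160 to 165 CPM in controls and 164 to 183 CPM in FlncgKO hearts. The 10 genes of receptor cleavage had log2 fold changes from -0.19 to 0.52 with a median of -0.02, and 4 were lower without overlap, against 14.1% of all genes. Among these *Furin*, the protease that makes the mature receptor, had a value of -0.13 ± 0.05 (adjusted p = 0.168 in edgeR).

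Of the 6 genes that add sugars to the receptor, *Mfng*, a Fringe enzyme, was at 2.22 to 2.42 CPM in controls and at 3.40, 3.44 and 3.60 CPM in FlncgKO hearts, with a log2 fold change of 0.56 ± 0.17 (adjusted p = 0.109 in edgeR). *Rfng*, another Fringe enzyme, had a value of -0.20 ± 0.10 (adjusted p = 0.274 in edgeR). Of 15 other reported targets in heart and vessels, 11 were tested and *Hes3* and *Helt* had no count in any library. *Hes7*, an oscillating target of the presomitic mesoderm, was at 1.05, 0.58 and 0.68 CPM in controls and 1.83, 1.72 and 1.20 CPM in FlncgKO hearts (log2 fold change 1.04 ± 0.32, adjusted p = 0.116 in edgeR), at levels near 1 CPM. *Nrg1*, the endocardial neuregulin, had a value of 0.31 ± 0.14 (adjusted p = 0.249 in edgeR). The 11 tested targets had a median of 0.08, with 7 above and 4 below 0. *Hey1* and *Hey2* had values of -0.22 ± 0.24 and 0.08 ± 0.09, with groups that overlapped (adjusted p = 0.644 and 0.647 in edgeR).

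The genes whose pattern over the 6 libraries was most like that of a member were found by the root mean square difference of centred log2 CPM among 14299 tested genes with a mean of at least 1 CPM. For *Dll1* they were *Scml4*, *Stmn2*, *Wnt4*, *Gm28661* and *Gbp4*, with differences of 0.25 to 0.46. *Scml4* was at 2.38, 2.27 and 1.40 CPM in controls and 0.36, 0.35 and 1.15 CPM in FlncgKO hearts, and *Stmn2*, a neuronal stathmin, at 1.88, 2.32 and 2.75 against 0.45, 0.49 and 2.56 CPM. Both were lowest in FlncgKO replicates 1 and 2, a likeness to *Dll1* by which they were chosen. For *Notch4* they were *Wipi1*, *Stab1*, *St6gal1*, *Arid5a* and *Ermp1*, with differences of 0.05 to 0.06, and *Stab1*, a scavenger receptor of endothelium and macrophages, was at 88.6, 102.6 and 97.2 CPM in controls and 133, 177 and 122 CPM in FlncgKO hearts. For *Jag1* they were *Cisd2*, *Myo18b*, *Cask*, *Usp13* and *Mrps31*, with differences of 0.02 to 0.03. *Myo18b*, a myosin of striated muscle, was at 310, 312 and 302 CPM in controls and 290, 264 and 247 CPM in FlncgKO hearts.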

How the data were processed

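RNA of 3 control and 3 FlncgKO hearts was sequenced by the authors from stranded poly(A) libraries. The authors assigned reads to GENCODE M22 transcripts (GRCm38.p6) with salmon, whose version is not given in the sources used here, and deposited the estimated counts and the TPM of 140658 transcripts. Transcripts were joined to genes through GENCODE M21 (GRCm38), and 0.370% of them, with 0.108 to 0.131% of the counts, were dropped for want of a match. Gene totals of the estimated counts were rounded to whole numbers and tested with edgeR 4.0.16 (robust quasi-likelihood test, TMM, a minimum of 10 counts in filterByExpr) in R 4.3.3, with Benjamini-Hochberg adjustment over 16048 genes and a threshold of 0.05. Standard errors are the log2 fold change divided by the root of F. TPM was used as deposited by the authors, summed per gene or of the longest coding transcript. The steps were tested on simulated data. DESeq2 1.42.0 was an alternative, as were RLE scaling, total counts, other filters, length offsets, a replicate block, a Y-linked covariate and leaving out each library. Fits of DESeq2 with that covariate, and leaving out libraries in turn, were added after seeing the data.

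Replicate numbers in the labels were not used as pairs. Genes outside the list were named as every gene past the threshold in edgeR or DESeq2 and up to 2 more with the smallest p in each pathway list, up to 3 in each of the endothelial, neural and second heart field marker lists, and the 5 nearest patterns of *Dll1*, *Notch4* and *Jag1*. Genes given beside a list as its defining markers were chosen by name. *Kat2a*, *Tagln*, *Npr3*, *Tek*, *Hey1*, *Hey2*, *Myh6*, *Myh7*, *Lfng*, *Meox1*, *Tbx6*, *Tle1* and *Tle3* were chosen after their values were seen. The members and lists were chosen with earlier results of these data known. Some genes that the rule names are not reported here. Start-site sequences are from RefSeq.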

Additional observations from a re-analysis of the deposited data

How the results depend on the processing

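Of 52 named genes under up to 21 alternatives, 938 values kept their direction and side of the threshold, 121 passed it only in the alternative, 17 lost it and 15 changed sign. The following counts of left-out libraries are for edgeR. Of the Notch members, 0 were higher and 0 lower in edgeR. *Notch4* was the 1 higher member without the low-count filter, under the replicate block and in DESeq2. DESeq2 called 2 lower, *Dll1* and *Jag1*. Leaving out 1 library gave 0 to 3 higher members and 0 to 1 lower, the most without FlncgKO replicate 3, where *Notch4*, *Dll4* and *Jag2* were higher and *Dll1* lower. DESeq2 without that library also called *Notch3* higher beside those 3, and *Dll1* lower. Of the other pathway genes, 1 was higher without the filter and 1 with 10 counts in every library, 2 under the block (*Maml3* and *Bmp10*) and 2 in DESeq2, where 1 was lower, and leaving out 1 library in edgeR gave 0 to 2 higher. DESeq2 without FlncgKO replicate 3 called *Rbpj*, *Maml3*, *Maml1* and *Mib2* higher among the named ones. *Notch1* had a log2 fold change of -0.00625 with RLE scaling, -0.027 with total counts, -0.012 without the filter, -0.0324 with length offsets, -0.218 when a Y-linked covariate was used, -0.00807 in DESeq2, -0.22 there with that covariate, -0.0465, -0.0743, -0.0878 and -0.0156 in DESeq2 without control replicates 1 and 3 and FlncgKO replicates 2 and 3, and -0.0812 to 0.11 in edgeR without 1 library each. The main log2 fold change of *Notch1* was 0.000548 with an SE of 0.117, so its sign is not settled.

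With the Y-linked covariate the adjusted p of *Notch4*, *Dll1* and *Jag1* was 0.612, 0.442 and 0.832 in edgeR, at log2 fold changes of 0.49, -2.79 and -0.12 against 0.64, -1.64 and -0.24 without it. This covariate largely follows the groups, so fits with it rest mainly on FlncgKO replicate 1. In DESeq2 without 1 library each, *Notch4* had an adjusted p of 0.000477 to 0.0501, the highest without control replicate 1. The correlations of same-numbered control and FlncgKO libraries were 0.0286, 0.569 and 0.592 for replicates 1, 2 and 3. Control replicate 2 with FlncgKO replicate 3 gave -0.542, and control replicate 3 with FlncgKO replicate 2 gave -0.607. Replicates 2 and 3 thus correlated best with their own number and control replicate 1 did not. The main test treated the libraries as sharing only a number. With a replicate block the edgeR adjusted p of *Notch4* was 0.0200, against 0.0622 without it. Depth limits *Dll1* and *Heyl* most, at 21 to 154 and 31 to 50 estimated counts per library.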
